A study of Mus musculus with 6 samples.

Results

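The Ms4a genes encode small membrane proteins that cross the membrane in a series of helices, and 7 of them were examined in leukemia cells taken from mice given a p53-activating drug. Ms4a3, Ms4a4b, Ms4a4c, Ms4a6b, Ms4a6c, Ms4a6d and Ms4a7 were chosen by name, as 1 gene of myeloid progenitors (Ms4a3) with relatives known from monocytes, macrophages and T cells. They are 7 of the 26082 different gene names in the expression table, and 10 other Ms4a names stand in the same table. 6 of the 7 have an entry of their own, whereas Ms4a3 is held in a single entry joined with its neighbour Ms4a2, so the values given for Ms4a3 are those of the joined entry and the part of Ms4a2 in it cannot be told apart.

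RNA-Seq was performed on MLL-AF9 leukemia cells of C57BL/6J mice, with 3 samples from vehicle-treated and 3 from DS-5272-treated animals. MLL-AF9 is a fusion oncogene of acute myeloid leukemia, and all 6 samples carry it by retroviral transduction of bone marrow progenitors, together with GFP. DS-5272 is an oral compound that blocks the binding of MDM2 to p53, and it was given at 80 mg/kg 24 h before the leukemia cells were isolated from bone marrow with a cell sorter. The comparison asks what the drug changes in these cells inside the animal. The labels do not say that each sample came from a separate mouse, so the p-values measure the spread between these samples. Expression is given as FPKM, fragments per kilobase of transcript divided by library size, so that levels of different genes can be set side by side per length. Relative to vehicle replicate 1, the depth read from the lowest values was 0.808 and 0.885 in the other vehicle samples and 0.539 to 0.746 in the DS-5272 samples, so every DS-5272 sample was the shallower.

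The best known members of the family are CD20, the product of Ms4a1 and a surface protein of B cells, and the beta chain of the high-affinity IgE receptor of mast cells and basophils, the product of Ms4a2. Ms4a3, also called HTm4, is a gene of granulocyte and monocyte progenitors whose product binds the phosphatase Cdkn3 and is tied to control of Cdk2. Ms4a6b, Ms4a6c, Ms4a6d, Ms4a4c and Ms4a7 are known from monocytes and macrophages, and Ms4a4b from T cells.

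In DS-5272-treated leukemia cells the joined Ms4a3 entry was 1.94 times lower than in vehicle-treated cells, and Ms4a4c, Ms4a6b, Ms4a6c, Ms4a6d and Ms4a7 were 2.60 to 11.5 times higher. With limma across 11130 genes, 5 of the 7 genes rose at an adjusted p under 0.05, beside 24.2% of all genes tested, and 1 fell, beside 22.0% of all genes tested. Ms4a4b did not pass the test. The 5 genes that rose were above every vehicle sample in all DS-5272 samples, which was the case for 32.1% of all genes tested, and the joined Ms4a3 entry was below every vehicle sample, as were 29.7%. The median log2 fold change of the 7 genes was 1.61, against 0.04 over all genes tested. The 7 were chosen with earlier results of these data known, so these counts and the median are no independent evidence of direction. All 7 passed the filter of a mean of at least 1 FPKM, Ms4a7 through its level in the DS-5272 group, so that it had to differ once it passed. As these are sorted bulk samples, a smaller share of cells of a type and less RNA per cell cannot be told apart.

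**Figure D1:**
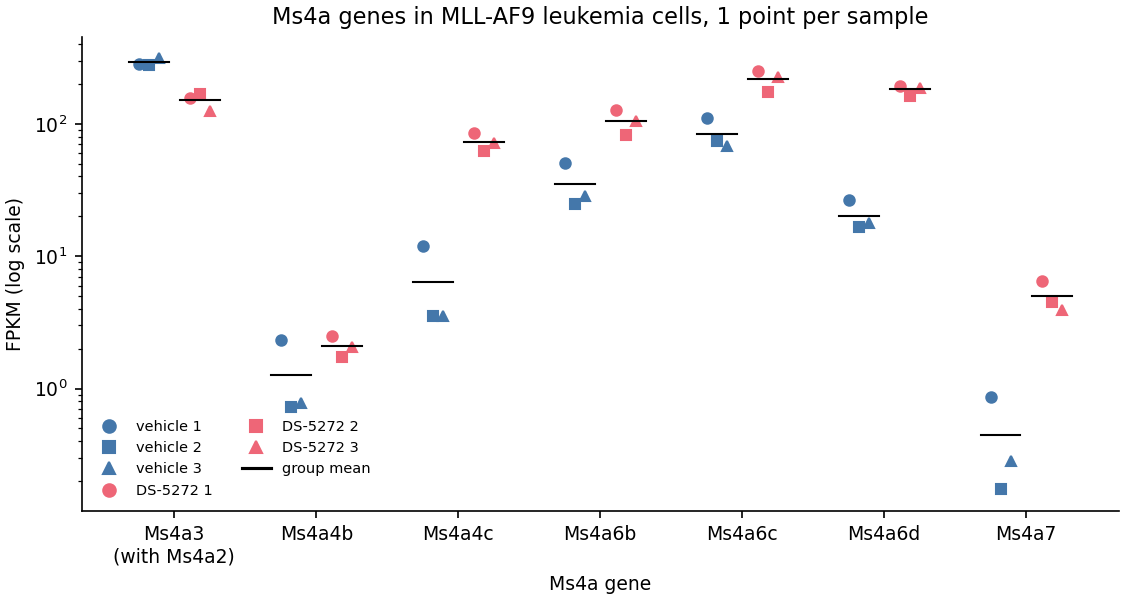
FPKM on a log scale (y axis) of the 7 Ms4a genes (x axis) in the 3 vehicle samples (blue) and the 3 DS-5272 samples (red), with 1 point per sample, marker shape for the replicate number and a black line for the group mean. The red points lie below the blue ones for the Ms4a3 entry, overlap them for Ms4a4b, and lie above them for Ms4a4c, Ms4a6b, Ms4a6c, Ms4a6d and Ms4a7.

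The joined Ms4a3 entry was by far the most abundant of the family in vehicle-treated cells. It stood at 285, 278 and 312 FPKM in vehicle replicates 1 to 3 while the DS-5272 samples, in the same order, had 158, 169 and 124 FPKM. All DS-5272 values lay below all vehicle values, with group means of 292 ± 18.03 and 150.2 ± 23.0 FPKM (SD, n = 3 each). The log2 fold change was -0.96 (limma, SE 0.14, 95% interval -1.30 to -0.63, adjusted p = 0.0039). It ran from -1.31 to -0.83 over 16 alternative settings and passed the threshold in all 16 of them.

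Ms4a2 needs its own words here because it shares this entry. Its partner in the IgE receptor, Fcer1a, was listed at 0 FPKM in all 6 samples, as was the mast cell tryptase Tpsb2. Of 9 mast cell and basophil markers 4 were abundant enough to test. The histamine-forming enzyme Hdc rose (log2 fold change 1.21, limma, adjusted p = 0.0041), the basophil protease Mcpt8 fell (-1.86, adjusted p = 0.00073), and Cpa3 and Gata2 did not pass. Their summed level was 79.4 to 103 FPKM in vehicle and 149 to 204 FPKM in DS-5272 samples, most of it Hdc. The part of Ms4a2 in the fall of the joined entry was not tested.

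The 3 Ms4a6 genes, which lie close together on chromosome 19, all rose. Ms4a6d rose most. Its level was 26.5, 16.5 and 17.8 FPKM in the vehicle samples and 194, 163 and 188 FPKM in the DS-5272 samples, 8.95 times higher by group mean (20.3 ± 5.44 and 182 ± 16.3 FPKM). The lowest DS-5272 value was far above the highest vehicle value, and the log2 fold change was 3.13 (limma, SE 0.18, 95% interval 2.69 to 3.57, adjusted p = 0.00061). Of the 11130 genes tested 59, or 0.530%, had a log2 fold change as high or higher.

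Ms4a6b was measured at 50.8, 24.9 and 28.7 FPKM in vehicle and at 128, 81.9 and 104 FPKM in DS-5272 samples. The groups did not overlap, and Ms4a6b rose 3.01 times by group mean (log2 fold change 1.61, limma, SE 0.29, adjusted p = 0.0065). Ms4a6c started from a higher level, with 109.95, 73.8 and 67.7 FPKM in vehicle and 251, 174 and 228 FPKM in DS-5272 samples. Ms4a6c was the highest of all 7 genes in every DS-5272 sample, and it rose 2.60 times (log2 fold change 1.38, limma, SE 0.22, adjusted p = 0.0049). The 95% intervals of Ms4a6b (0.92 to 2.29) and Ms4a6c (0.86 to 1.91) both lay below that of Ms4a6d, though the difference between the genes' changes was not itself tested.

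The coding sequences of the Ms4a6 genes are alike but not near-identical. Aligned end to end, 80.1% of positions were identical between Ms4a6b and Ms4a6d, 74.7% between Ms4a6b and Ms4a6c and 67.2% between Ms4a6c and Ms4a6d. Sequencing reads were 100 bases long, and none of the 100-base windows of Ms4a6b and Ms4a6d transcripts and 0.513% of those of Ms4a6c occurred in another gene, in that case Prdm11. Exons of Ms4a6c overlap an antisense transcript, BE692007, by 1088 bases, and whether the counting used strand is not given in the sources used here. BE692007 was at 0.267 to 0.708 FPKM in vehicle and 0.529 to 1.04 FPKM in DS-5272 samples, far below Ms4a6c.

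The sequences before the annotated starts of Ms4a6b and Ms4a6c are shown because both genes rose and because their promoters hold the same 9 letters that fit the interferon response core. RefSeq (GRCm38.p6) gave promoter windows for 6 of the 7 genes, from 250 bases before to 50 bases after a start, with 2 for Ms4a7. The windows of Ms4a6b and Ms4a4c and the downstream window of Ms4a7 lie wholly inside the gene bodies annotated by GENCODE. Motif positions and missing matches there depend on the start chosen. The 250 bases before the start are printed in the direction of transcription, and capitals mark the match to GAAANNGAA, searched on both strands.
Ms4a6b, chr19:11518309-11518558, plus strand: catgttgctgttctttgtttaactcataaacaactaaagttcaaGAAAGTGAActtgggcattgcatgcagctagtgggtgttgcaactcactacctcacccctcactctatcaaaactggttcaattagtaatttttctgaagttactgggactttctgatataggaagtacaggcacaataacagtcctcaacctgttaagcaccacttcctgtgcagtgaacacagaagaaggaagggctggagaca
Ms4a6c, chr19:11469118-11469367, plus strand: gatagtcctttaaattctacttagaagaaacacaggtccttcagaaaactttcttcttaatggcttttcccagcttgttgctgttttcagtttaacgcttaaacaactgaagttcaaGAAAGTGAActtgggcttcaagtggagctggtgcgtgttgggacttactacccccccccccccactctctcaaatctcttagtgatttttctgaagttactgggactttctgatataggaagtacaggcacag

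The match lies from -206 to -198 in Ms4a6b and from -133 to -125 in Ms4a6c, counted from the start. The match in each stands inside a like stretch of sequence, and the longest run shared by both promoters was 48 bases, further toward the start. Over the full windows, GAAANNGAA was found for 3 of the 6 genes, Ms4a6b, Ms4a6c and both windows of Ms4a7, beside 8.56% of 32851 RefSeq promoters of the same length. A p53 half-site, the short motif that p53 binds in pairs, was found in none of the 7 windows and in 8.36% of all promoters. Such matches describe letters and not bound sites. Ms4a4c, with the highest log2 fold change of the 7 genes, had no GAAANNGAA match, and Ms4a6d had no promoter window. The mRNA of 18 interferon-stimulated genes tested rose in 18 of 18 cases in the same samples, beside 24.2% of all genes tested. Oas3 had a log2 fold change of 2.65 and Zbp1 of 2.54 (limma, adjusted p = 0.0018 and 0.0027). A part of interferon in the rise of the Ms4a genes was not tested.

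Ms4a4c and Ms4a4b are the most alike pair among the 7 genes, with 91.7% identical coding positions, and 1 passed the test while the other did not. Ms4a4c was at 12.01, 3.51 and 3.54 FPKM in vehicle and at 84.9, 61.9 and 72.2 FPKM in DS-5272 samples. Vehicle replicate 1 stood above the other vehicle samples but well below every DS-5272 sample, and the group means were 6.35 ± 4.90 and 73.0 ± 11.5 FPKM. The log2 fold change of Ms4a4c was 3.51 (limma, SE 0.41, 95% interval 2.53 to 4.49, adjusted p = 0.0023), the highest of the 7 genes, and 34 genes or 0.305% of all tested had one as high or higher. Without vehicle replicate 1 it was 4.02.

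Ms4a4b stayed low in both groups. Its 2 entries summed to 2.31, 0.720 and 0.783 FPKM in vehicle and to 2.50, 1.74 and 2.08 FPKM in DS-5272 samples. The groups overlapped through vehicle replicate 1, and the log2 fold change of 0.51 did not pass the test (limma, SE 0.27, 95% interval -0.14 to 1.17, adjusted p = 0.165). Without vehicle replicate 1 it was 0.82 with an adjusted p of 0.022 by limma, so that single sample decided the call. The 95% interval of Ms4a4b lay below that of Ms4a4c, and the difference between their changes was not itself tested. Of the 100-base windows of the transcripts, 1.66% of those of Ms4a4c occurred in Ms4a4b and 0.473% of those of Ms4a4b in Ms4a4c or Ms4a2. Only exact matches were counted, and the higher level of Ms4a4c was not weighed. A part of misplaced Ms4a4c reads in the Ms4a4b level was not tested.

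Ms4a4b is known from T cells, and T cell markers were low in these samples. Of 11 markers with an entry, 8 were under 1 FPKM in every sample, and Cd3e, a chain of the T cell receptor complex, did not exceed 0.313 FPKM. The 11 markers summed to 4.20 to 5.27 FPKM in vehicle and 4.15 to 6.59 FPKM in DS-5272 samples, of which Lck and Bcl11b made up most in vehicle. Lck, a kinase of T cell receptor signaling, fell (log2 fold change -0.60, limma, adjusted p = 0.0294) and Bcl11b did not pass. Without any 1 of the vehicle samples or of DS-5272 replicates 2 and 3, Lck no longer passed (limma, adjusted p = 0.061 to 0.106). The 8 natural killer cell markers, none abundant enough to test and Gzma the highest, summed to 0.556 to 0.992 FPKM in vehicle and 1.78 to 4.16 FPKM in DS-5272 samples, and their part in the Ms4a4b level was not tested.

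The promoters of the Ms4a4 pair are shown because the genes are so alike and only Ms4a4c passed the test. Capitals mark GAGGAA, the core of sites of the myeloid factor PU.1, searched on both strands. Ms4a4b also holds TATAAA, the TATA box, from -140 to -135, which is left in lower case.
Ms4a4b, chr19:11443308-11443557, plus strand: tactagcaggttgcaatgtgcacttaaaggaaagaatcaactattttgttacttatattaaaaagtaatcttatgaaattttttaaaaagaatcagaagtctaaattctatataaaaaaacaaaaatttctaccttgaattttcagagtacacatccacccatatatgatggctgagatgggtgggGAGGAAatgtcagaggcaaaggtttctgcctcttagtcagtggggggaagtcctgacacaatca
Ms4a4c, chr19:11407411-11407660, plus strand: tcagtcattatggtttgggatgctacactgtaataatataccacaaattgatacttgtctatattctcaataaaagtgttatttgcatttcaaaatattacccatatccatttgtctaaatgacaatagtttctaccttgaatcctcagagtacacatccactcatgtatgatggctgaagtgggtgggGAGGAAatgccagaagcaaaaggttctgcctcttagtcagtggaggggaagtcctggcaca

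Aligned end to end, 68.8% of the positions of these promoter sequences were identical, against 45.8% for Ms4a6b with Ms4a6c. The latter pair shares a run of 48 bases, but its like stretches lie at different distances from the start, which lowers such a figure. Ms4a4c with Ms4a6c gave 45.5% and Ms4a4b with Ms4a6b 44.3%. GAGGAA lies from -64 to -59 in Ms4a4b and from -61 to -56 in Ms4a4c. This is nearly the same place in the Ms4a4 pair, within a stretch where their sequences run in parallel. GAGGAA is a common word, found in 28.28% of all promoters, and TATAAA was found in 13.62%. Of the 6 genes with a window 4 held GAGGAA, among them Ms4a7 from 44 to 49 after a start. The joined entry's Ms4a3 has GAGGAA from 36 to 41 and TTGCACAA, a match to the C/EBP core TTGCNNAA found in 10.8% of all promoters, from 42 to 49 after its start, where the matches do not overlap.

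Ms4a7 was near the lower limit in vehicle-treated cells. It stood at 0.872, 0.174 and 0.286 FPKM in vehicle and at 6.54, 4.51 and 3.92 FPKM in DS-5272 samples. The groups were apart, and the group means of 0.444 ± 0.375 and 4.99 ± 1.37 FPKM differed 11.2 times. The log2 fold change of Ms4a7 was 2.06 on the log2(FPKM + 1) scale (limma, SE 0.24, 95% interval 1.49 to 2.63, adjusted p = 0.0023), and 3.41 with a pseudocount of 0.1 in place of 1, as the larger one understates the change of a low gene.

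**Figure D2:**
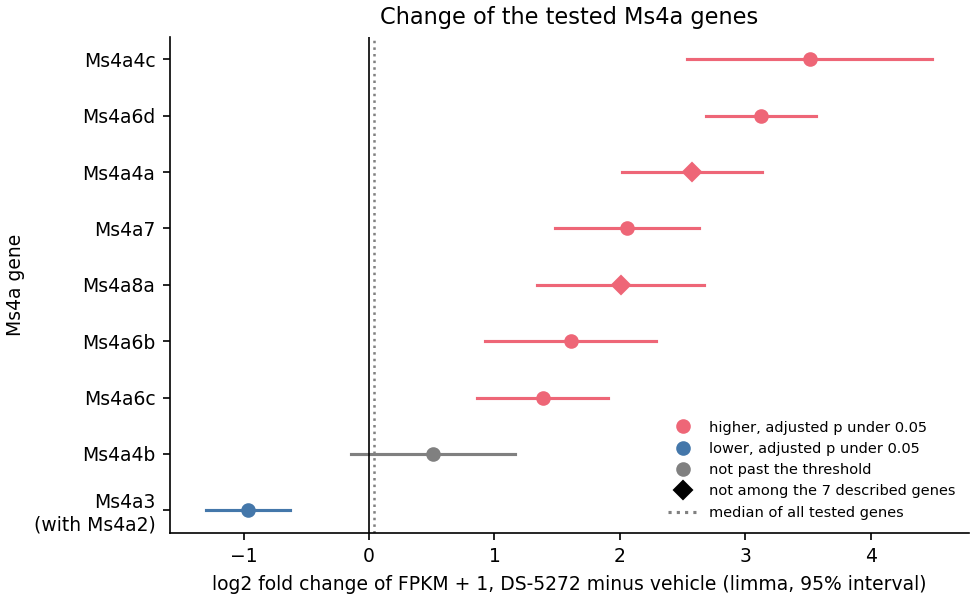
Log2 fold change of FPKM + 1 between DS-5272 and vehicle samples (x axis, with the 95% interval from limma) for the 9 Ms4a genes that could be tested (y axis). Red and blue mark genes higher and lower at an adjusted p under 0.05, grey marks Ms4a4b, diamonds mark genes outside the 7, and the dotted line is the median of all genes tested at 0.04.

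Some markers of resident macrophages rose in the samples where Ms4a7 rose. Of 14 markers, 12 could be tested, of which 5 rose, 7 did not pass and none fell, beside 24.2% of all genes tested that rose. The median log2 fold change over the 12 was 1.801. Among the 7 that did not pass, Spic, Axl and Mertk were tested only through their DS-5272 level. The lectin Siglec1 rose by 3.38 and the complement gene C1qb by 2.99 on the log2 scale (limma, adjusted p = 0.0012 and 0.006). Their summed level was 93.4 to 160.04 FPKM in vehicle and 237 to 707 FPKM in DS-5272 samples. DS-5272 replicate 1 was highest, with Cd5l, a secreted protein of resident macrophages, at 61.7 FPKM against 1.76 and 4.43 FPKM in the other DS-5272 samples. Without that replicate the log2 fold change was 1.88 for Ms4a7 and 3.40 for Ms4a4c (limma, adjusted p = 0.005 and 0.007). C1qb was at 14.1 and 15.6 FPKM in the remaining DS-5272 samples, still above its highest vehicle value of 2.95 FPKM. The part of resident macrophages in the Ms4a values was not tested.

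Most of the tested monocyte and macrophage genes outside the family rose as well. Of 22 tested, 16 rose and 6 did not pass the test, with a median of 1.97 and the protease Ctss at 3.27. Among the 6, Ly6c2 and F13a1 had negative values (-0.39 and -0.27) and the others positive ones. Beside this list and those that follow, 24.2% of all genes tested rose and 22.0% fell. The IgG receptor Fcgr1 had the highest log2 fold change of these, 3.36, but with vehicle and DS-5272 means of 0.623 and 15.7 FPKM it passed the filter on low values through the DS-5272 group alone and so had to differ. Of 14 neutrophil maturation genes 9 rose and none fell, with a median of 2.76, Mmp9 at 4.32 and S100a9 at 4.08. S100a9 no longer passed without DS-5272 replicate 2 or 3 (limma, adjusted p = 0.0628 and 0.0655). Ly6g, among the 9, also passed the filter through the DS-5272 group alone, with vehicle and DS-5272 means of 0.207 and 2.44 FPKM. Of 14 progenitor and primary granule genes 7 fell and none rose, with a median of -0.69, the myeloperoxidase gene Mpo at -5.07 and the receptor gene Flt3 at -3.81. The values are log2 fold changes from limma. The genes named, except Ly6c2 and F13a1, passed an adjusted p of 0.05, while the medians are over all genes of a list that were tested. The lists were written with the outcome of these samples known and are no independent evidence of its direction.

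The label of the samples as leukemia cells was set beside 6 of 7 genes listed for such cells, as Hoxa9 lies in a joined entry. Itgam is also in the monocyte list, and Kit, Cebpa and Meis1 are in the progenitor list, so these genes do not test the label. Ptprc, the pan-leukocyte CD45, was at 66.0 to 84.5 FPKM in vehicle and 141 to 214 FPKM in DS-5272 samples, and the stem cell factor receptor Kit at 30.5 to 45.04 FPKM and 4.94 to 12.1 FPKM. Of the 6, Itgam, Ptprc and Spi1 rose (log2 fold change 2.1003, 1.18 and 0.75), Kit fell (-1.96), and Cebpa and Meis1 did not pass an adjusted p of 0.05 by limma. Cd79b was the only B cell marker of 9 abundant enough to test and did not pass. The B cell markers summed to 4.68 to 5.57 FPKM in vehicle and 3.73 to 6.29 FPKM in DS-5272 samples, with 7 of the 9 under 1 FPKM in every sample.

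The make-up of the family turned over between the groups. Summed over the 17 Ms4a entries, expression was 489, 399.7 and 433 FPKM in the vehicle and 836, 671 and 745 FPKM in the DS-5272 samples. The FPKM total over all genes differed too, at 445316 to 501241 in vehicle and 499229 to 661184 in DS-5272 samples. The joined Ms4a3 entry held 58.3%, 69.6% and 72.2% of the family sum in vehicle and 18.9%, 25.1% and 16.7% in DS-5272 samples. The share of Ms4a6d went from 4.12% to 5.42% in vehicle to 23.2% to 25.2% in DS-5272 samples. The summed FPKM of Ms4a4c, Ms4a6b, Ms4a6c, Ms4a6d and Ms4a7, divided by that of the joined entry, was 0.702, 0.427 and 0.378 in vehicle and 4.22, 2.88 and 4.79 in DS-5272 samples.

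**Figure D3:**
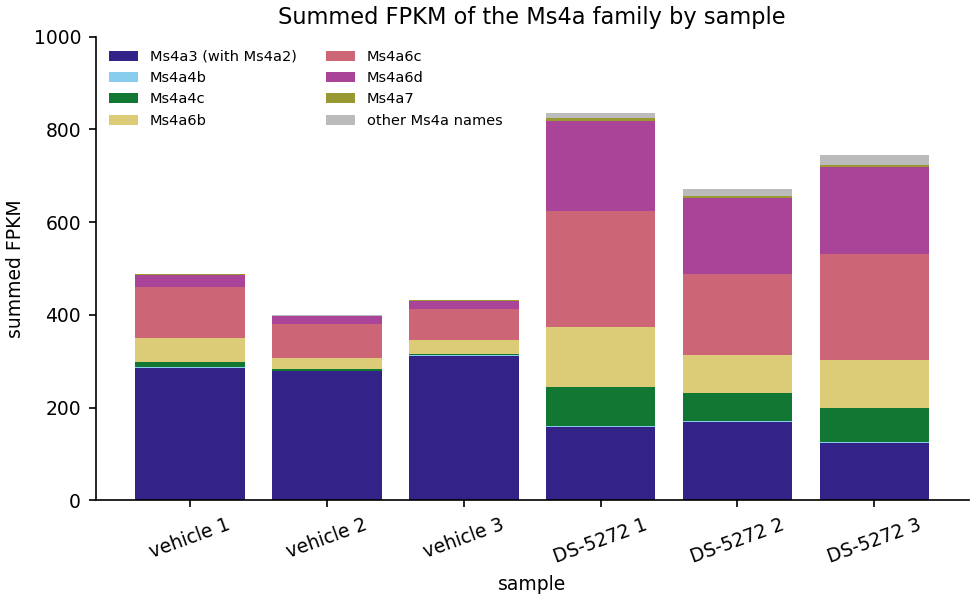
Summed FPKM (y axis, from 0) of the Ms4a entries in each of the 6 samples (x axis), with 1 colour per gene and the entries outside the 7 in grey. The joined Ms4a3 entry makes up over 58% of each vehicle bar, whereas Ms4a6c and Ms4a6d together with Ms4a6b and Ms4a4c fill most of each DS-5272 bar.

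In vehicle-treated cells the order of mean levels per length was the Ms4a3 entry, Ms4a6c, Ms4a6b, Ms4a6d, Ms4a4c, Ms4a4b and Ms4a7. The ranges of Ms4a6b and Ms4a6d overlapped, as did those of Ms4a4b and Ms4a7, while all other neighbours in the order were apart. In DS-5272-treated cells the order was Ms4a6c, Ms4a6d, the Ms4a3 entry, Ms4a6b, Ms4a4c, Ms4a7 and Ms4a4b. There, each gene from Ms4a6c down to Ms4a4c overlapped its neighbour in range, and only Ms4a7 and Ms4a4b stood apart from the genes above them.

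The progenitor gene was also set against each relative within the same sample. Scaling of a whole library cancels in such a difference for abundant genes but not fully for low ones, as 1 is added to each value. The log2(FPKM + 1) of the Ms4a3 entry minus that of Ms4a6c was 1.37, 1.90 and 2.19 in vehicle and -0.67, -0.05 and -0.87 in DS-5272 samples. Thus the entry was above Ms4a6c in each vehicle sample and below it in each DS-5272 sample. Against Ms4a6d the difference was 3.38, 3.997 and 4.06 in vehicle and -0.30, 0.05 and -0.59 in DS-5272 samples.

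From vehicle to DS-5272, the within-sample difference fell by 4.48 for Ms4a4c, by 4.09 for Ms4a6d, by 3.02 for Ms4a7, by 2.57 for Ms4a6b, by 2.35 for Ms4a6c and by 1.48 for Ms4a4b on the log2 scale. In all 6 comparisons the groups did not overlap, and each gave p = 0.1 in a two-sided exact permutation test, the smallest that 3 against 3 samples allow. None of the 6 can therefore pass a threshold of 0.05. All 6 share the Ms4a3 entry, whose groups did not overlap by itself, so they are not separate results. Ms4a4b itself changed by 0.51 with overlapping groups, and most of its difference was the change of the entry (-0.96). How many of all genes would part from the entry in the same way was not counted.

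**Figure D4:**
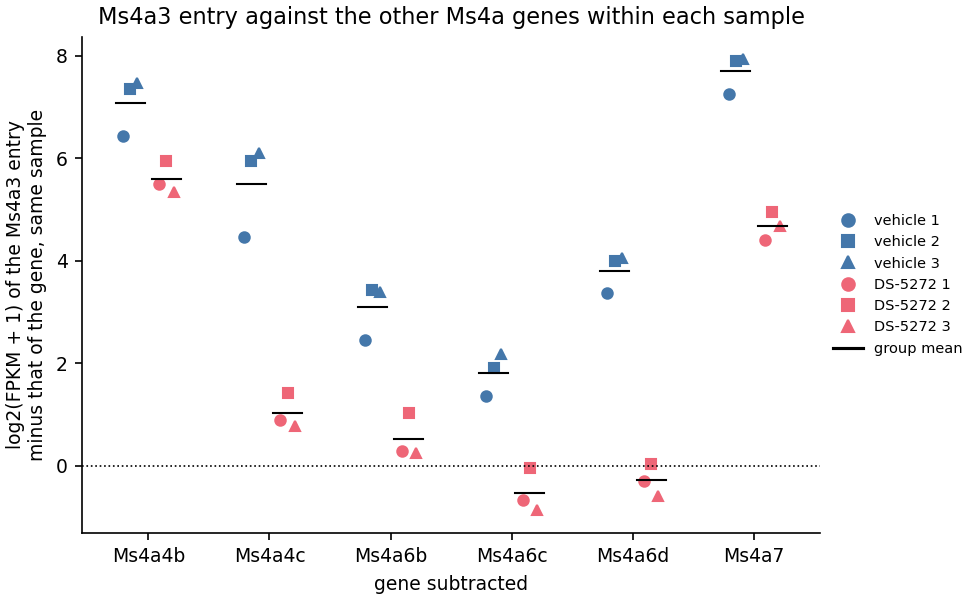
Log2(FPKM + 1) of the joined Ms4a3 entry minus that of each of 6 other Ms4a genes in the same sample (y axis), for the vehicle (blue) and DS-5272 (red) samples, with 1 point per sample and a black line for the group mean. All red points lie below all blue points of the same gene, and those for Ms4a6c are below 0.

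Outside the 7, 2 of the 10 other Ms4a names were abundant enough to test, both through their DS-5272 level, and both rose. Ms4a4a and Ms4a8a had vehicle means of 0.549 and 0.936 FPKM, so a higher DS-5272 mean was required for either to be tested. Ms4a4a, known from macrophages, was at 0.726, 0.501 and 0.421 FPKM in vehicle and 5.78, 8.10 and 11.6 FPKM in DS-5272 samples (log2 fold change 2.58, limma, SE 0.23, adjusted p = 0.0012). Ms4a8a was at 0.815, 1.15 and 0.841 FPKM in vehicle and 4.43, 6.28 and 10.8 FPKM in DS-5272 samples (log2 fold change 2.01, limma, SE 0.28, adjusted p = 0.0036). For both, every DS-5272 sample lay above every vehicle sample, as for 32.1% of all genes tested, and DS-5272 replicate 3 was the highest. Ms4a14 was too low to test at 0.021 to 0.039 FPKM in vehicle and 0.208 to 0.770 FPKM in DS-5272 samples. Ms4a1, the gene of CD20, did not exceed 0.052 FPKM, and Ms4a4d, Ms4a5 and Ms4a15 did not exceed 0.066 FPKM. Ms4a10, Ms4a13 and Ms4a18 were listed at 0 in all samples. The related genes Tmem176a and Tmem176b were under 1 FPKM in every sample, and their groups overlapped.

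Partners of the Ms4a proteins were measured from a list of 6 names, of which Clec7a is held only in a joined entry and was left out, and Fcer1a was at 0. Of the other 4, 2 rose and 2 fell at an adjusted p under 0.05 by limma. Of all genes tested, 24.2% rose and 22.0% fell. Cdkn3, the phosphatase bound by Ms4a3, was at 25.4, 26.5 and 25.1 FPKM in vehicle and at 2.89, 11.4 and 1.03 FPKM in DS-5272 samples, so it fell in each while varying widely among them (log2 fold change -2.53, limma, SE 0.59, adjusted p = 0.0145). Cdkn3 passed in 14 of 16 alternative settings, and its adjusted p by limma was 0.0503 without vehicle replicate 2 and 0.0828 without both samples numbered 1. Cdk2, the kinase that Cdkn3 acts on, fell as well (42.2 to 46.0 FPKM in vehicle and 21.1 to 27.6 FPKM in DS-5272, log2 fold change -0.87, limma, adjusted p = 0.0037). Fcer1g, the signaling chain shared by Fc receptors, was between 432 and 561 FPKM in vehicle and between 903 and 1345 FPKM in DS-5272 samples (log2 fold change 1.13, limma, adjusted p = 0.0054). Tnfrsf18, the costimulatory receptor GITR that Ms4a4b binds, was between 2.77 and 4.25 FPKM in vehicle and between 8.62 and 12.7 FPKM in DS-5272 samples (log2 fold change 1.38, limma, adjusted p = 0.0036).

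The Ms4a genes form a cluster on mouse chromosome 19. In the GENCODE annotation of GRCm38 it runs over 679 kb, chr19:10962293-11640851, and holds 35 annotated genes, 22 of them protein-coding and 19 named Ms4a. The gene bodies of the 7 were placed as follows. Ms4a7 lies on the minus strand at chr19:11321039-11336146, Ms4a4c, Ms4a4b, Ms4a6c and Ms4a6b follow on the plus strand at chr19:11404770-11427246, chr19:11443553-11467055, chr19:11469366-11482192 and chr19:11516512-11531256, and Ms4a6d is on the minus strand at chr19:11586604-11604849. Ms4a3 closes the cluster on the minus strand at chr19:11629496-11640851, next to Ms4a2 at chr19:11615523-11623719. The joined entry that fell, of Ms4a2 and Ms4a3, thus lies at the end of the cluster, with Ms4a6d the nearest of the genes that rose. The lincRNA AW112010, inside the cluster, was at 1.10 to 1.87 FPKM in vehicle and 1.54 to 5.15 FPKM in DS-5272 samples and did not pass (log2 fold change 0.66, limma, adjusted p = 0.134), nor did Gm8369, between Ms4a6c and Ms4a6b (0.10, adjusted p = 0.760).

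The samples numbered 1 were the highest of their group for Ms4a4b, Ms4a4c, Ms4a6b, Ms4a6c, Ms4a6d and Ms4a7, in vehicle and in DS-5272. In vehicle, replicate 1 was from 1.54 times (Ms4a6d) to 3.80 times (Ms4a7) the mean of the other samples, and in DS-5272 from 1.10 to 1.55 times for the same genes. The joined Ms4a3 entry did not share this, with ratios of 0.965 and 1.08. Without both samples numbered 1, the log2 fold change was 3.91 for Ms4a4c, 2.08 for Ms4a7 and 0.73 for Ms4a4b, the last with an adjusted p of 0.023 by limma.

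Across the 6 samples, the Pearson correlation of log2(FPKM + 1) between any pair of Ms4a4c, Ms4a6b, Ms4a6c, Ms4a6d and Ms4a7 was 0.96 to 0.99, and that of the Ms4a3 entry with them -0.90 to -0.96. These describe 2 groups of samples and mostly follow the difference between the groups. The genes closest in pattern to the Ms4a3 entry were Gstcd (r = 0.999), Idi1 (0.997) and the neutrophil elastase gene Elane (0.997), the last at 1579 to 2128 FPKM in vehicle and 210.03 to 411 FPKM in DS-5272 samples. Those closest to Ms4a7 were Ube2f (0.999), Pvr (0.997) and Nagk (0.993), each over the same 6 samples.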

How the data were processed

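RNA-Seq was performed on MLL-AF9 leukemia cells isolated with a cell sorter from bone marrow of vehicle- or DS-5272-treated mice (3 samples each). The authors made strand-specific libraries, sequenced 100 bases from both ends, trimmed reads with cutadapt 1.8.1 and fastx-toolkit, aligned them to GRCm38 with TopHat 2.1.1 and deposited FPKM values per gene from Cufflinks 2.2.1. FPKM divides out transcript length and library size, counts and absolute depth are not part of the table, and no counting interval was given.

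The table has 26632 entries. Values of names on more than 1 line (435) were summed, and 433 entries that join several genes were kept apart. Groups were compared with limma 3.58.1 in R 4.3.3 (lmFit, eBayes with trend, two-sided) on log2(FPKM + 1), for 11130 genes averaging 1 FPKM or more across the samples, adjusted by the Benjamini-Hochberg method over all of them, with a threshold of 0.05. The procedure was tested on simulated data. Single values were compared by an exact permutation test in scipy 1.17.1. Samples were grouped by their treatment labels.

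Replicate numbers run from 1 to 3 in both groups. Deviations from the group means of same-numbered samples correlated at 0.658, 0.209 and 0.43, and those of differently numbered samples at -0.576 to 0.335. The main comparisons left the samples unpaired, as neither the labels nor the study's methods name a shared litter or day. Same-numbered samples were taken as pairs only in an alternative setting, the replicate block.

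The 7 genes, the further 12 lists and the motifs were chosen with earlier results of these data known. Of 141 list memberships, 131 were matched by symbol and 3 by an older symbol, 6 lie in joined entries and 1 had no entry. The text names all Ms4a genes with a value, their partners, from each list the 2 genes that moved most in the direction of the list's median, the most abundant marker of lymphoid and mast cell lists, the neighbours in the cluster and the 3 genes nearest in pattern to Ms4a3 and Ms4a7. BE692007, Mcpt8, Bcl11b, Cpa3, Gata2, Cd3e, Cd5l, Kit, Fcer1a, Tpsb2, Ly6g, Ly6c2, F13a1, Spic, Axl and Mertk were named after their values were seen. Promoters are those of RefSeq. Windows of 100 bases and coding sequences come from GENCODE transcripts. Alternatives changed the pseudocount, filter, scaling, block, trend and samples, 1 at a time.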

Additional observations from a re-analysis of the deposited data

How the results depend on the processing

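Of 110 alternative values of the 7 fold changes, under up to 16 settings each, 108 kept direction and call and 2 passed the threshold where the main value did not, both of Ms4a4b. Its log2 fold change was 0.73 (limma, adjusted p = 0.023) without both samples numbered 1, an alternative chosen after seeing the data, and 0.35 to 0.82 with 1 sample left out, the highest without vehicle replicate 1. Asking for a change of 1 or more on the log2 scale, in either direction, left 0 of the 7 called lower in place of 1, as the Ms4a3 entry changed by -0.96. Asking for a mean of at least 5 FPKM left 0 other Ms4a genes called higher in place of 2 and 4 of the 7 called higher in place of 5, as Ms4a4a, Ms4a8a and Ms4a7 were then not tested. With the replicate block 5 rose and 1 fell as without it, Ms4a4b had an adjusted p of 0.054 by limma, and no call among the Ms4a genes changed. In the lists the replicate block called 73 genes in place of 64. It called 12 neutrophil maturation genes higher in place of 9, and 18 monocyte and macrophage genes in place of 16. Resident macrophage genes called higher were 7 in place of 5, and progenitor and primary granule genes called lower were 9 in place of 7. None of 66 alternative differences of the Ms4a3 entry from a relative was reversed. Scaling to a common total moved the median of all genes tested from 0.04 to -0.19 on the log2 scale, and the other scalings gave -0.06 to 0.00. Depth limits Ms4a4b, Ms4a7 and the genes under 1 FPKM most, since 1 fragment weighs more there and the DS-5272 samples are shallower.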
